A study of Bos taurus with 8 samples.

Results

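*KRT17* and 9 other genes of intermediate filament proteins (*KRT5*, *KRT7*, *KRT8*, *KRT14*, *KRT18*, *KRT19*, *KRT10*, *VIM* and *NES*) were examined in bovine preadipocyte clones. They were chosen by gene symbol, with their levels in these clones already known, so their values are given as a description, with no p-value for their difference between the groups. Of the 10 genes, 6 had a row among the 18871 named genes of the count table, and all 6 passed the filter of at least 20 counts over the 8 clones that left 18339 genes. *KRT5*, *KRT7*, *KRT8* and *KRT18* were not analysed here.

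RNA was sequenced from 8 single-cell clones grown from the stromal vascular fraction of fat of adult Angus-cross steers, 4 from intramuscular fat of the longissimus dorsi muscle (IMF1 to IMF4) and 4 from subcutaneous fat (SF1 to SF4). Each clone stemmed from a separate stromal vascular sample. The authors kept clones that looked like fibroblasts, formed fat comparatively well and grew comparatively fast. Each group thus stands for selected clones rather than for the tissue. No genetic change or added agent separates the groups. The study's methods place RNA extraction in growing cells near confluence, whereas the deposited design text places it after adipogenic induction, and the number of steers also differs between them. The clones of a group are separate samples, but which of them share an animal is not given in the sources used here.

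Intermediate filaments are the stress-bearing cables of the cytoplasm, and each cell type builds them from its own proteins. Keratins are the filament proteins of epithelia and assemble only as pairs of an acidic type I chain with a basic type II chain. Keratin 17 is a type I keratin known from hair follicles, other skin appendages and the edge of healing skin wounds, where the keratin 6 proteins are its usual type II partners. Cells of connective tissue, preadipocytes among them, build their filaments from vimentin, a type III protein that needs no partner, and progenitor cells of muscle and nerve add nestin, a type IV protein.

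Total counts on named genes ranged from 19654917 in IMF1 to 29308882 in IMF2. At this depth 3 counts corresponded to 0.0981 to 0.165 CPM (counts scaled to a common library size after TMM normalization), and such limits cover counting error only. No 2 clones of a group matched within counting error: in the closest pair of IMF clones 28.2% of 11443 well-counted genes differed by more than the 95% point of a chi-square test. The share was 28.2% to 44.6% over the IMF pairs and 47.9% to 62.4% over the SF pairs. Technical variation between libraries can also exceed counting error, so these shares do not show that the libraries are separate clones. All 8 preadipocyte and stromal markers looked for had a row, with a summed level of 23381 to 24532 CPM in the IMF clones and 46892 to 53089 CPM in the SF clones. Most of that sum was *COL1A1* and *COL1A2*, which encode the chains of type I collagen, and *PDGFRA*, a receptor of adipocyte progenitors, had 184 ± 2.84 CPM in IMF against 131 ± 23.2 CPM in SF (SD, n = 4). Within that list *DLK1* was low, at 0 to 3.17 CPM, with no count in IMF2. *XIST*, the RNA of the inactive X chromosome, had 176 to 245 CPM in all 8 clones, although the labels give the sex as male.

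*KRT17* had more counts than any other gene in each of the 8 clones. It took 4.66%, 6.88%, 5.78% and 7.80% of the counts of IMF1 to IMF4, and 3.85%, 3.65%, 4.12% and 7.26% of those of SF1 to SF4. A 95% Wilson interval on such a share reached at most 0.0116 percentage points to either side, so the differences between clones were far above counting error. The gene had 1.23 to 6.23 counts for each count of *COL1A1*, which encodes a chain of type I collagen, the main matrix product of stromal cells. In the RefSeq list of the ARS-UCD2.0 assembly, *KRT17* lies on chromosome 19 from 41834615 to 41846161.

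On the normalized scale, *KRT17* reached 43899, 65929, 52852 and 76842 CPM in IMF1 to IMF4 and 40508, 36514, 41602 and 84109 CPM in SF1 to SF4. The group ranges overlapped because of SF4, which had the highest CPM of the 8 clones, while the other 3 SF clones lay below all IMF clones. The mean was 59880.5 ± 14481 CPM for IMF and 50683 ± 22391 CPM for SF (SD, n = 4 clones each). The log2 fold change of IMF over SF was 0.24 with a standard error (SE) of 0.32, and it was 0.60 without SF4 and 0.10 without IMF4. SF4 also had the lowest normalization factor of the 8 clones, 0.863. By share of raw counts, which does not use that factor, SF4 (7.26%) came after IMF4 (7.80%) and before the other 6 clones.

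**Figure D1:**
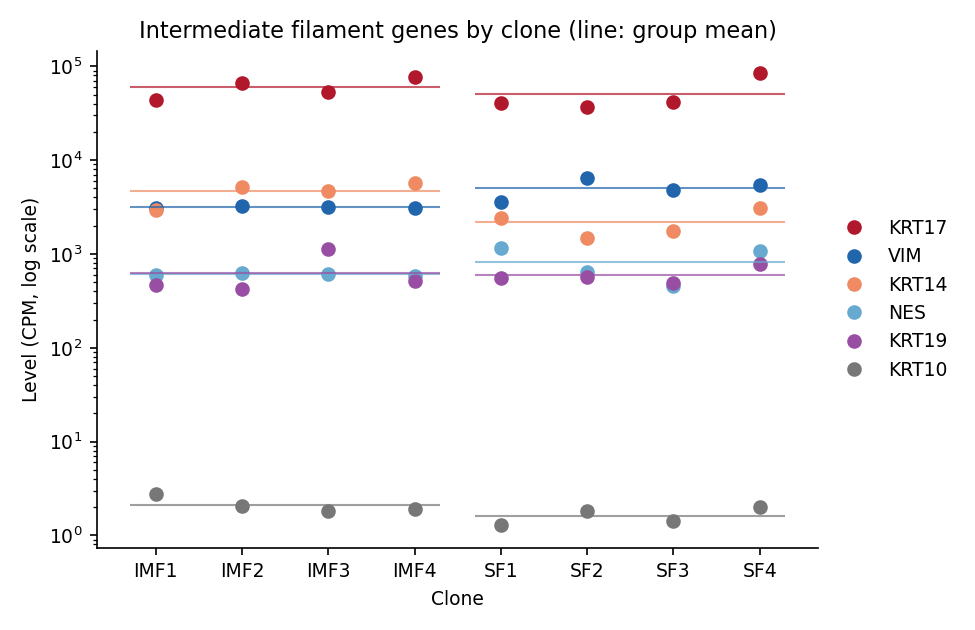
Level of the 6 analysed intermediate filament genes in each clone, in CPM on a log axis, with a line at each group's mean (4 IMF and 4 SF clones); CPM is not divided by gene length, so heights compare clones of a gene. *KRT17* lies between 36514 and 84109 CPM in every clone and *KRT10* between 1.28 and 2.73 CPM, and the *VIM* points of the IMF clones are nearly level.

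*KRT14*, the type I keratin of basal cells in layered epithelia, was the nearest gene with a row to *KRT17* on chromosome 19 (41792379 to 41796743). It measured 2924, 5227, 4718 and 5768 CPM in the IMF clones and 2409, 1477, 1742 and 3054 CPM in the SF clones. Only SF4 exceeded the lowest IMF clone, IMF1. The log2 fold change was 1.10 (SE 0.28), with means of 4660 ± 1234 CPM for IMF and 2171 ± 708 CPM for SF (SD, n = 4), and it was under 1 without IMF4 (0.98), SF2 (0.96) or SF3 (0.98). *KRT14* was the only 1 of the 6 genes past both thresholds of the call (adjusted p under 0.05 and a log2 fold change of 1 or more in either direction), against 8.82% of all genes tested, and nothing is read from that count because the genes were chosen with these values known.

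*KRT19*, the smallest keratin and a marker of simple epithelia, measured 471, 425, 1118 and 509.75 CPM in the IMF clones and 555, 571, 495 and 788 CPM in the SF clones. IMF3 stood alone, at more than any other clone, and the other 3 IMF clones were close to the SF clones. The log2 fold change was 0.07 (SE 0.32) with all clones and −0.39 without IMF3. *KRT10*, the type I keratin of the upper, differentiating layers of the epidermis, was low in all clones, with 57, 63, 40 and 40 counts in the IMF clones and 25, 36, 35 and 36 counts in the SF clones. Its log2 fold change was 0.39 (SE 0.25), or 0.25 without IMF1, at a mean of 2.13 and 1.62 CPM.

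*VIM*, the vimentin gene (chromosome 13, 31653816 to 31661745), measured 3057.5, 3254, 3175 and 3089 CPM in the IMF clones and 3534, 6498, 4853 and 5455 CPM in the SF clones. Every SF clone lay above every IMF clone, and *VIM* was the only 1 of the 6 genes whose groups did not overlap, against 32.1% of all genes tested. Its log2 fold change was −0.69 (SE 0.18). *NES*, the nestin gene (chromosome 3, 14159893 to 14168905), measured 603, 623, 618 and 588 CPM in the IMF clones and 1159, 638, 452 and 1070 CPM in the SF clones. The SF clones lay on both sides of the IMF clones, and the log2 fold change was −0.45 (SE 0.28), or −0.24 without SF1 and −0.69 without SF3.

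For the order of levels within a clone, counts were divided by the deposited gene length and expressed as TPM, which sets every clone to the same sum of length-corrected counts. *KRT17* stood first of the 6 genes in every clone, at 50857, 68165, 62309 and 79296 TPM in the IMF clones and 43219, 43247, 47336 and 80675 TPM in the SF clones. Per length there were 17.5, 24.7, 20.3 and 30.3 *KRT17* transcripts for each *VIM* transcript in IMF1 to IMF4, and 14.0, 6.85, 10.5 and 18.8 in SF1 to SF4. By counts per length, the *KRT17* row thus exceeded the *VIM* row in all 8 clones. The IMF and SF ranges of the ratio overlapped only through SF4 and IMF1.

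The second place among the 6 genes differed between the groups. In the IMF clones *KRT14* (3079 to 5410 TPM) came before *VIM* (2613 to 3069 TPM), and their ranges missed each other narrowly. In the SF clones *VIM* (3092 to 6310 TPM) came before *KRT14* (1590 to 2662 TPM), without overlap. *KRT17* exceeded *KRT14* by 12.3 to 16.5 times in the IMF clones and by 18.5 to 30.3 times in the SF clones. *KRT19* followed with 481 to 1442 TPM and *NES* with 128 to 308 TPM, and *KRT19* was above *NES* in each clone. *KRT10* was last, at 1.32 to 3.05 TPM, and *KRT17* exceeded it by 16667 to 44025 times.

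Type I keratins were then set against type II keratins, since a filament needs both. Of the listed type I keratins 17 had a row, and of the type II keratins 2, *KRT6A* and *KRT80*. The type I sum was 106942 ± 19088 TPM in IMF and 93996.5 ± 28681 TPM in SF, whereas the type II sum was 8.98 ± 1.24 and 0.934 ± 0.558 TPM (SD, n = 4). For each type II transcript counted there were 8344 to 17002 type I transcripts in the IMF clones and 47179 to 265843 in the SF clones. These ratios hold only for the rows analysed, as the principal type II partners of these chains, *KRT5* and *KRT8* among them, were not analysed here. *KRT17* alone made up 52.7% to 69.7% of the type I sum.

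**Figure D2:**
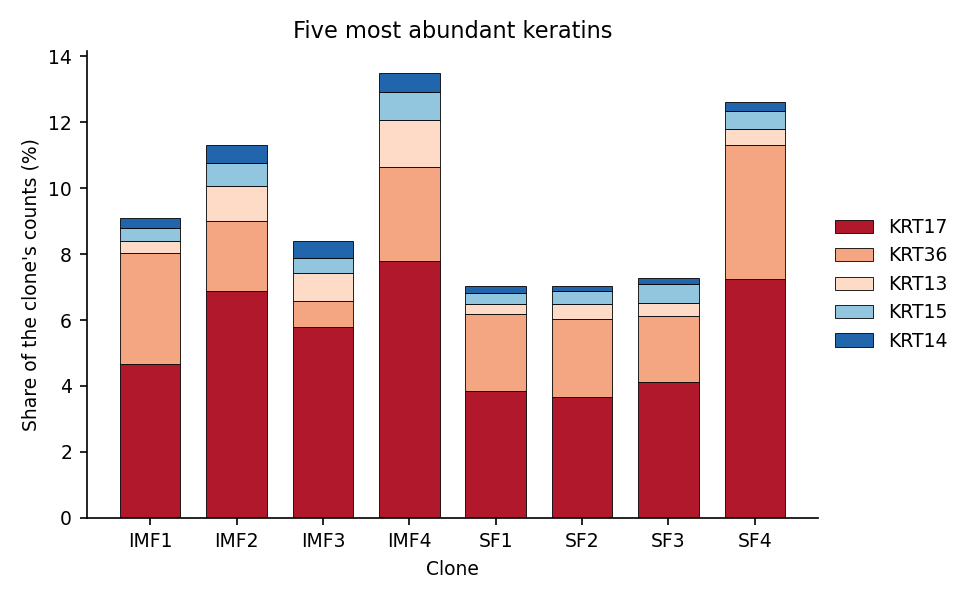
Share of each clone's counts taken by the 5 keratin genes with the most counts, in percent, stacked from *KRT17* at the base to *KRT14* on top. *KRT17* takes 3.65% to 7.80%, and *KRT36* above it takes 4.04% in SF4 and 0.800% in IMF3.

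Other type I keratins of the same gene cluster were also abundant, and all keratins together took 8.54% to 13.6% of the counts in the IMF clones and 7.13% to 12.8% in the SF clones. *KRT36*, a hair and nail keratin, measured 31808, 20456, 7307 and 28073 CPM in the IMF clones and 24527, 23747, 20112 and 46822 CPM in the SF clones. IMF3 was the lowest clone and SF4 the highest, and per length *KRT17* exceeded *KRT36* by 1.49 times in IMF1 and 7.83 times in IMF3. *KRT13*, a keratin of moist layered epithelia such as the esophagus, measured 3567, 10140, 7708 and 14035 CPM in the IMF clones and 3050, 4729, 4087 and 5708 CPM in the SF clones. *KRT15*, known from basal cells and the hair follicle bulge, measured 3674, 6622, 4204 and 8203 CPM in the IMF clones and 3471, 3762, 5814 and 6413 CPM in the SF clones.

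None of these type I keratins passed the test between the groups. With edgeR (quasi-likelihood test, p adjusted over all genes by Benjamini and Hochberg), *KRT36* had a log2 fold change of −0.39 (SE 0.46, adjusted p = 0.579), *KRT15* of 0.22 (SE 0.31, adjusted p = 0.651) and *KRT13* of 1.01 (SE 0.39, adjusted p = 0.0931). *KRT13* passed with DESeq2 (adjusted p = 0.0322), with total counts alone as library size (adjusted p = 0.0460) and without IMF1 (log2 fold change 1.27, adjusted p = 0.0184). *KRT23*, a keratin found in glands and gut, measured 19.8 to 113 CPM in the IMF clones and 104 to 601 CPM in the SF clones (log2 fold change −1.76, SE 0.67, adjusted p = 0.0920; 0.0207 with DESeq2). Its highest clone was SF4, without which the log2 fold change was −0.89. The hair keratin *KRT35* ranged from 51.5 CPM in IMF3 to 721 CPM in SF4 (adjusted p = 0.678). *KRT20*, *KRT24*, *KRT32* and *KRT33A* stayed at or below 8.06 CPM in every clone, with adjusted p from 0.172 to 0.949.

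Both type II keratins with a row were higher in IMF. *KRT6A*, a partner of keratin 17 in skin appendages and wounds, was counted 106, 195, 156 and 114 times in the IMF clones and never in an SF clone. It was at least 40.5-fold higher in IMF, computed against 3 counts in each SF clone (adjusted p = 9.52e-05). *KRT80*, a type II keratin of many epithelia, measured 11.03, 12.07, 12.10 and 11.04 CPM in the IMF clones and 4.47, 0.751, 2.72 and 2.26 CPM in the SF clones, without overlap (log2 fold change 2.18, SE 0.42, adjusted p = 0.00624). At 5.09 to 12.1 CPM in the IMF clones, both genes lay far below *KRT17*, *KRT36*, *KRT13*, *KRT15* and *KRT14*.

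The IMF clones differed more from each other in the abundant keratins than in vimentin and nestin. Among the IMF clones the coefficient of variation was 24.2% for *KRT17*, 26.5% for *KRT14* and 51.7% for *KRT19*, but 2.82% for *VIM* and 2.62% for *NES*. The median was 4.97% over the 1175 genes with a mean of at least 100 CPM in both groups. In that set *KRT17* lay at percentile 84.8, *KRT14* at 85.9 and *KRT19* at 94.98, and *VIM* and *NES* lay at percentiles 18.1 and 15.2. The place of *KRT19* rested on IMF3, at 1118 CPM beside 425 to 509.75 CPM in the other IMF clones. *KRT13* (49.5%), *KRT15* (37.3%) and *KRT36* (49.4%) varied in the same range as the analysed keratins, and *KRT35* varied more (79.1%). Wide spread was not particular to keratins. *DSP* (49.4%), *DSG3* (40.6%), *COL17A1* (34.8%) and *PKP1* (23.8%), described below, varied widely too, whereas *PLEC* (6.25%) and *COL1A1* (3.17%) varied little.

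Among the SF clones this split was not seen. There the coefficient of variation was 44.2% for *KRT17*, 32.6% for *KRT14*, 21.2% for *KRT19*, 24.3% for *VIM* and 40.9% for *NES*, with 49.4% for *KRT35*, beside a median of 14.3% for the same 1175 genes. In that set *KRT17* lay at percentile 94.2, *NES* at 92.5, *KRT14* at 85.7, *VIM* at 73.9 and *KRT19* at 67.7. The place of *KRT17* rested on SF4, at 84109 CPM beside 36514 to 41602 CPM in the other SF clones. A coefficient of at least 20% was found for 406 of the 1175 genes (34.6%) among the SF clones and for 203 (17.3%) among the IMF clones. Gene IDs that begin with LOC and are not in the bovine RefSeq list made up 39.9% of those 203 genes and 1.95% of the remaining 972. These IDs took 6.23% to 9.40% of the counts of a clone, and their part in the spread of the keratins was not tested. The annotation that holds them is not given in the sources used here. Some genes also seem to have separate rows under an older and a newer symbol. Their spread in IMF differed, as for *AARS* (2.68%) and *AARS1* (22.6%) or *EPRS* (4.15%) and *EPRS1* (36.7%). The origin of such rows was not tested. It is thus not known whether the counted *KRT17* row and its deposited length match the RefSeq gene whose position is given above.

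**Figure D3:**
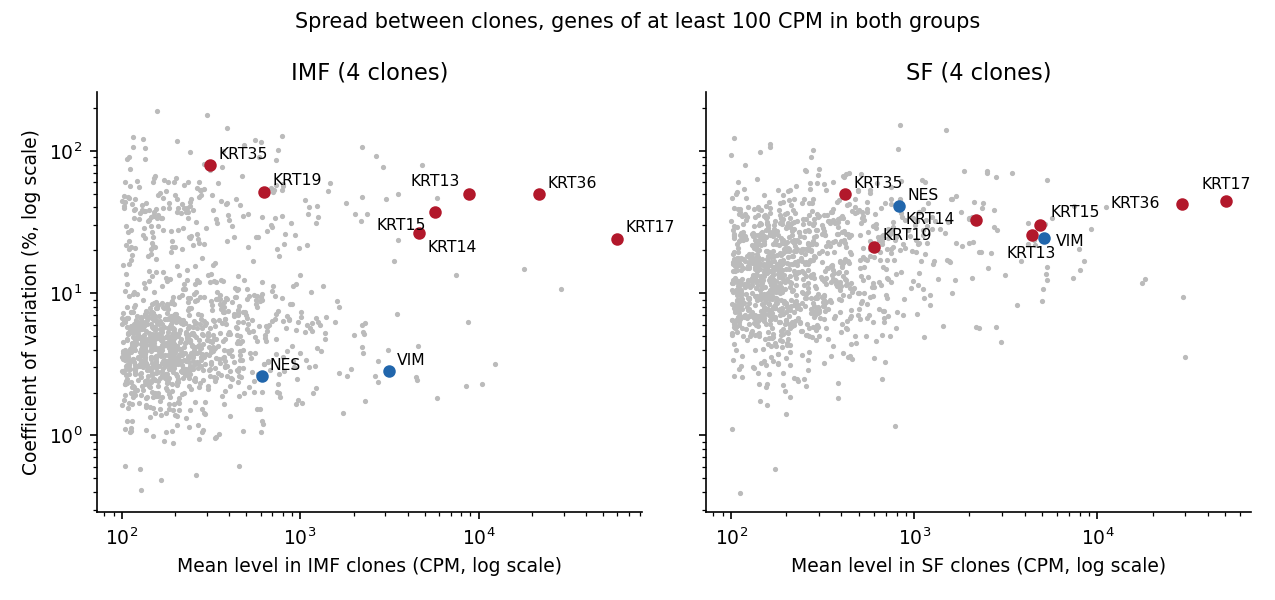
Coefficient of variation (SD over mean, in percent) against mean CPM for the 1175 genes with at least 100 CPM in both groups, 1 grey point a gene, among the 4 IMF clones (left) and the 4 SF clones (right), both axes on log scales. In IMF the 7 keratins (red) lie at 24.2% to 79.1%, while *VIM* and *NES* (blue) lie at 2.82% and 2.62%; in SF all 9 lie between 21.2% and 49.4%.

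The genes that followed *KRT17* most closely over the 8 clones were sought by the root mean square of the difference in centred log2 CPM over 15378 genes, whose median distance was 0.523. The closest 5 were *LOC101120446* (0.0964), *CBLC* (0.128), *CAPNS2* (0.145), *LOC101105179* (0.147) and *LOC101118481* (0.150). *CBLC* encodes a ubiquitin ligase of epithelial cells and *CAPNS2* a small subunit of the calpain proteases, and the 3 LOC IDs are not in the bovine RefSeq list. *CBLC* measured 68.6, 83.2, 77.3 and 124 CPM in the IMF clones and 52.4, 52.5, 52.9 and 126 CPM in the SF clones. As with *KRT17*, the highest clone of its group was IMF4 in IMF and SF4 in SF. Of the closest 100 genes 45.0% were LOC IDs absent from that list, against 12.2% of the other genes.

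Of the members and keratins, *KRT15* was the closest and came 74th (distance 0.269). *KRT10* came 3105th, *KRT14* 4767th, *KRT13* 6634th, *NES* 8394th, *KRT19* 8632nd, *VIM* 10584th and *KRT36* 11580th. *KRT14*, although the nearest gene with a row to *KRT17* on the chromosome, thus had a distance of 0.463, below the median by a small margin. These distances are a description over 8 clones that share their library normalization.

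**Figure D4:**
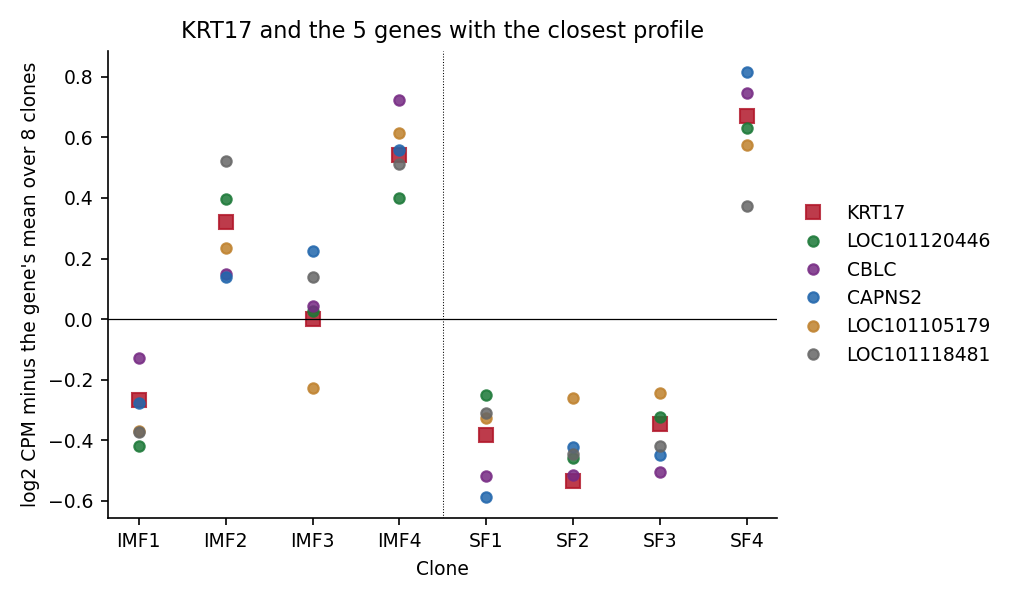
log2 CPM minus each gene's mean over the 8 clones, for *KRT17* (squares) and the 5 genes closest to it (circles), by clone. All 6 genes lie above their mean in IMF2, IMF4 and SF4 and below it in IMF1, SF1, SF2 and SF3.

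The genes beside *KRT17* on chromosome 19 did not share its level. On the lower side *KRT14* and *KRT19* are described above, and *KRT9*, a keratin of palm and sole skin, had 0 to 14 counts in any clone (log2 fold change −0.41, adjusted p = 0.833). On the higher side *EIF1*, a translation initiation factor, measured 203 ± 13.6 CPM in IMF against 260 ± 13.3 CPM in SF (SD, n = 4). Its log2 fold change of −0.36 (SE 0.08, adjusted p = 0.0131) did not reach the fold threshold. *HAP1*, a vesicle transport protein, had 2.15 to 4.14 CPM (log2 fold change 0.03, adjusted p = 0.947), and *GAST*, the gastrin gene, had 0 to 11 counts and too few to be tested. The listed position of *KRT42* overlaps that of *KRT17* by 4207 bases, and *KRT42* and *KRT16*, whose sequence is close to that of *KRT17*, were not analysed here. How reads that fit several keratin genes were counted is not given in the sources used here, so the split of reads between near-identical keratins is uncertain.

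Around the members, 116 further genes of filaments, their anchors and their regulators were listed, again with earlier results of these clones known. Of 76 tested, 11 passed as higher in IMF, 2 passed as lower and 63 did not pass, which is 17.1% called against 8.82% of all genes. Over all genes 4.78% were called higher and 4.04% lower. Their median log2 fold change was −0.10, beside −0.03 over all genes. Among type I keratins 0 of 12 were called by edgeR and by limma-voom, and 2 of the 12 (*KRT13* and *KRT23*) had an unadjusted p under 0.05 and were called by DESeq2.

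Among the other type III and IV filament genes, *DES*, which encodes the desmin of muscle cells, measured 102, 102, 101 and 85.2 CPM in the IMF clones and 19.3, 0.250, 7.02 and 21.9 CPM in the SF clones (log2 fold change 3.01, SE 0.83, adjusted p = 0.0291). The groups did not overlap, but the call was lost with the replicate number as a block (adjusted p = 0.0551) and without IMF1, IMF2, IMF3, IMF4 or SF3 (adjusted p = 0.0547 to 0.0769). *NEFH*, the heavy neurofilament chain of nerve cells, measured 9.96 ± 0.542 CPM in IMF against 3.72 ± 2.43 CPM in SF (log2 fold change 1.41, SE 0.37, adjusted p = 0.0255). That call was lost without any 1 of IMF1 to IMF4, SF1 or SF4 (adjusted p = 0.0505 to 0.0672). *GFAP*, *SYNM* and *INA*, filament genes of glia, muscle and nerve, did not pass (adjusted p = 0.558, 0.287 and 0.0550).

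Markers of other cell types differed between the groups together with *DES*. The 6 genes of the myoblast list, *DES* among them, summed to 335 to 395 CPM in the IMF clones and 0.801 to 23.0 CPM in the SF clones, and *MYOD1* and *MYOG*, the myogenic regulators, had no count in any SF clone. The 7 endothelial markers summed to 120 to 136 CPM in IMF and 2.67 to 4.35 CPM in SF. The 5 leukocyte markers with a row summed to 18.6 to 39.8 CPM in IMF and 46.2 to 76.5 CPM in SF but did not move together: *CD3E* was called lower in IMF and *CD14* higher by edgeR, and *PTPRC*, at 1.90 to 19.2 CPM in IMF and 24.8 to 49.6 CPM in SF, was called lower by DESeq2 and limma-voom but not by edgeR (adjusted p = 0.0518). In such bulk samples fewer cells of a type and less RNA per cell cannot be told apart, and the part of these cells in the filament genes was not tested.

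Of the lamins, which form the filament mesh under the nuclear envelope, *LMNB1* was higher in IMF. It had 87.2, 91.3, 94.2 and 88.9 CPM against 29.1, 36.4, 42.4 and 20.7 CPM in the SF clones (log2 fold change 1.49, SE 0.20, adjusted p = 0.00102). *LMNB2* was 128 ± 3.49 CPM in IMF against 73.9 ± 17.5 CPM in SF, with an adjusted p of 0.00639 but a log2 fold change of 0.79, under the fold threshold. *LMNA*, the most abundant lamin gene, was 917 ± 30.6 and 980 ± 120 CPM (adjusted p = 0.571).

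Among other filament proteins, *BFSP1* and *BFSP2*, known for the beaded filaments of the eye lens, were called higher in IMF and *SYNC*, a desmin-binding protein of muscle, lower. *BFSP1* measured 5.57 ± 0.767 CPM in IMF against 2.66 ± 0.986 CPM in SF (log2 fold change 1.06, SE 0.28, adjusted p = 0.0237). Its call was lost without IMF2, IMF3 or IMF4 (adjusted p = 0.0588 to 0.0628) and without SF1 or SF4, where the log2 fold change was 0.95 and 0.88. *BFSP2* had 203 counts over the IMF clones and 6 over the SF clones, a ratio of 29.5 for the library sizes with a 95% counting interval of 13.3 to 81.2 (adjusted p = 0.000123). *SYNC* measured 27.1 ± 2.28 CPM in IMF against 81.4 ± 41.3 CPM in SF (log2 fold change −1.58, SE 0.34, adjusted p = 0.0106). *IFFO2* and *FAM83H* did not pass (adjusted p = 0.130 and 0.301).

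Several genes of proteins that tie keratins to desmosomes, the buttons between epithelial cells, were abundant in both groups. *DSP*, which encodes desmoplakin, measured 5445, 1223, 3548 and 3917 CPM in the IMF clones and 5730, 4782, 4512 and 6247 CPM in the SF clones (log2 fold change −0.59, SE 0.38, adjusted p = 0.307). Its lowest clone was IMF2, the second highest IMF clone for *KRT17*. The plaque gene *PKP1* had 3527 ± 839 and 4158 ± 1289 CPM, and the desmosomal cadherin gene *DSG3* had 1117 ± 453 and 1555 ± 261 CPM in IMF and SF (adjusted p = 0.532 and 0.310). *PKP3* was abundant as well (1093 and 1255 CPM). Other desmosome genes were low, among them *JUP* (27.4 to 47.0 CPM), *DSC2* (6.06 to 21.3 CPM) and *DSC3* (0.462 to 4.65 CPM). *PERP*, a membrane protein of desmosomes, was the only 1 of 12 desmosome genes called by edgeR, at 117 ± 4.93 CPM in IMF against 8.29 ± 1.63 CPM in SF (log2 fold change 3.82, SE 0.15, adjusted p = 2.89e-06). DESeq2 and limma-voom each called 2 of the 12, *PERP* and the plaque gene *PKP2*, which had 42 counts over the IMF clones and 5 over the SF clones (adjusted p = 0.0531 by edgeR, 0.00445 by DESeq2 and 0.0227 by limma-voom). None of the 7 plakin genes passed both thresholds with edgeR, DESeq2 or limma-voom. In edgeR 3 of them had an unadjusted p under 0.05 and 1 an adjusted p under 0.05, namely *PLEC*, the plectin gene, at 978 ± 61.2 CPM in IMF against 1609 ± 160 CPM in SF (log2 fold change −0.72, SE 0.11, adjusted p = 0.00209).

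Of 7 genes of the hemidesmosome, which ties keratins to the basement membrane, the integrin chains *ITGA6* and *ITGB4* were higher in IMF and the laminin chain *LAMA3* was lower. *ITGA6* measured 10.8 ± 0.733 CPM in IMF against 2.52 ± 1.44 CPM in SF (log2 fold change 2.09, SE 0.37, adjusted p = 0.00403), and *ITGB4* measured 7.82 ± 0.916 and 2.67 ± 0.489 CPM (log2 fold change 1.54, SE 0.17, adjusted p = 0.000484). *LAMA3* measured 12.7 ± 1.37 CPM in IMF against 47.3 ± 17.3 CPM in SF (log2 fold change −1.89, SE 0.25, adjusted p = 0.00108). *COL17A1*, the transmembrane collagen of basal keratinocytes, was the most abundant of the 7, at 787 ± 274 and 1277 ± 215 CPM (adjusted p = 0.107), and *CD151* had an adjusted p of 0.0294 at a log2 fold change of −0.40.

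Among 21 regulators tested, *OVOL1*, a transcription factor of epithelial differentiation, was the only 1 called (4.76%, against 8.82% of all genes). In edgeR 7 of the 21 had an adjusted p under 0.05 and 13 an unadjusted p under 0.05. *OVOL1* was counted 54, 112, 60 and 52 times in the IMF clones and never in an SF clone, and was at least 19.4-fold higher in IMF (adjusted p = 0.000327). *HNRNPK*, an RNA-binding protein, and *ROCK2*, a kinase of the cytoskeleton, were the most abundant regulators not called. *HNRNPK* had a log2 fold change of 0.40 (SE 0.09, adjusted p = 0.0114) and *ROCK2* of −0.19 (SE 0.07, adjusted p = 0.0774), both under the fold threshold.

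**Figure D5:**
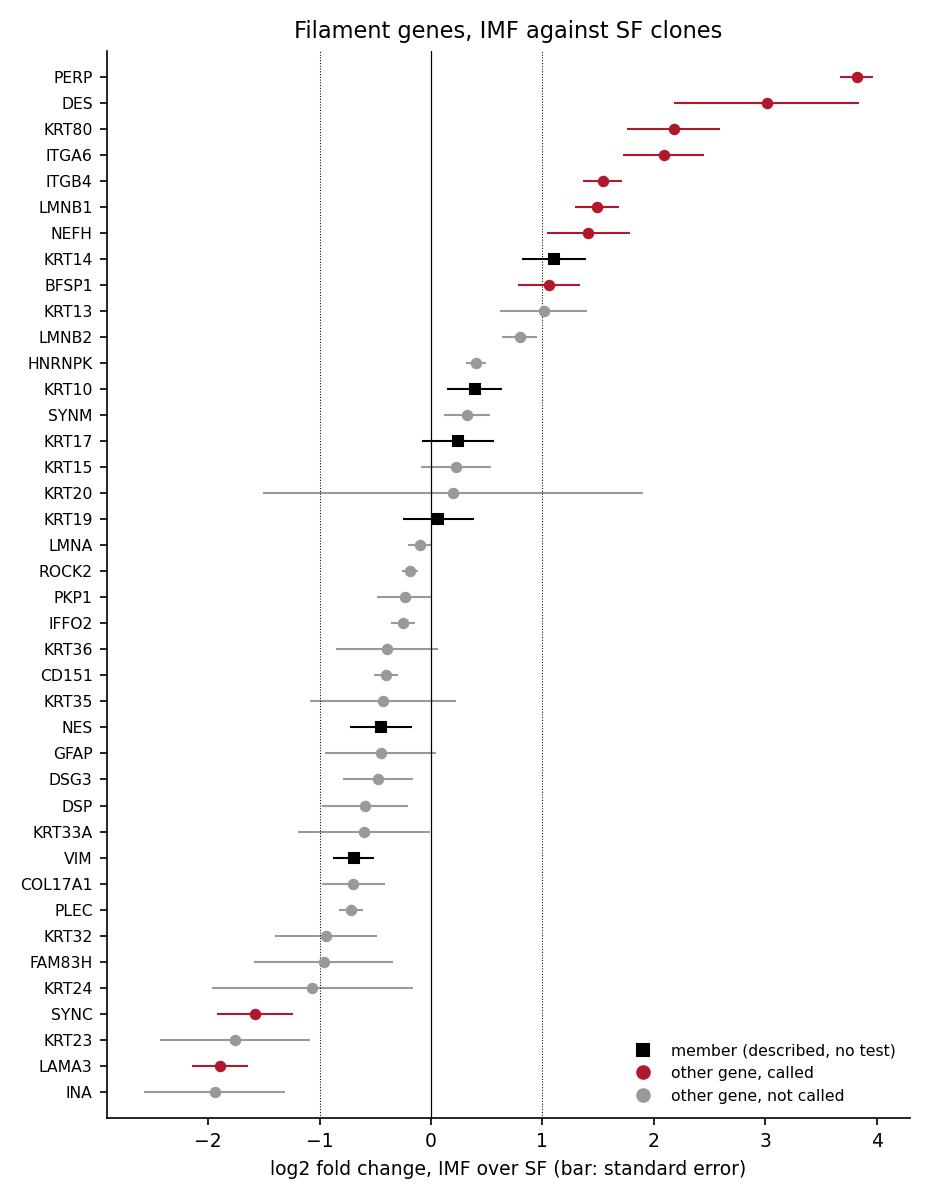
log2 fold change of IMF over SF (4 clones each) with its standard error, for the named genes of the filament lists that had counts in both groups, without *BFSP2* and *KRT9*. Black squares are the 6 chosen genes (described, with no p-value given), red circles are other genes called by edgeR and grey circles are genes not called. Dotted lines mark a log2 fold change of −1 and 1. *PERP* (3.82) lies farthest to the right and *INA* (−1.94, and −0.97 without SF1) farthest to the left.

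Some markers of layered epithelium were abundant beside the keratins in every clone. The 8 keratinocyte markers with a row, of 14 looked for, summed to 10906.5 to 18337 CPM in the IMF clones and 8893 to 14959 CPM in the SF clones. Without keratins the remaining 6 summed to 3001 to 4365 and 3654.5 to 5492 CPM. Within that sum some genes were low: *DSC3*, a desmosomal cadherin gene, had 0.462 to 4.65 CPM, and *PERP* had 6.25 to 9.70 CPM in the SF clones. *TP63*, *SFN*, *IVL*, *LOR* and *FLG* of that list were not analysed here. Markers of simple epithelium, 9 of 12 with a row, summed to 1478 to 2178 CPM in IMF and 2029 to 3311 CPM in SF, but their adhesion molecule *CDH1*, which encodes E-cadherin, had 14.8 to 17.4 CPM in the IMF clones and no count in any SF clone (adjusted p = 1.13e-05). Mesothelial markers other than *KRT19* were low, at 8.47 to 8.76 CPM in IMF and 7.66 to 9.24 CPM in SF for 3 genes of 9. Of the 9 myoepithelial and hair follicle markers 4 had a row and summed to 4024 to 6770 CPM in IMF and 2826 to 8912 CPM in SF. Without *KRT14* the remaining 3 summed to 1002 to 1133 and 1084 to 6502 CPM, most of it the smooth muscle actin gene *ACTA2*, which edgeR called lower in IMF, while *MYH11* was called higher and *SOX9* was not called. Whether the keratin counts come from the cloned cells, from other cells or from another source was not tested.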

How the data were processed

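Poly(A) RNA of 8 bovine clones was sequenced in paired-end reads. The authors deposited raw counts per gene and clone together with the gene length in bases, made with Trimmomatic 0.39 and featureCounts 2.0.2 on ARS-UCD2.0. The methods name HISAT2 as aligner and the labels' processing notes name STAR 2.7.11a, and a non-stranded kit and a dUTP protocol are described in the same way. Counts of genes that overlap on opposite strands may thus hold reads of each other. The deposited group means and DESeq2 results (base mean, fold change, its error, test statistic, p-values and category) were not used. A row without a gene name (0.0148% to 0.0209% of counts) was left out.

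CPM used TMM-normalized library sizes, and TPM used the deposited lengths. IMF and SF were compared with edgeR 4.0.16 (TMM, two-sided quasi-likelihood test, genes with at least 20 counts in total, Benjamini-Hochberg adjustment over 18339 genes), and a call needed an adjusted p under 0.05 with a log2 fold change of 1 or more in either direction. Fold bounds against a group without counts used 3 counts per clone. A profile was log2 CPM with a prior count of 2, centred over the clones. Counting intervals were Wilson or exact at 95%. The fit was tested on simulated counts.

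The members and lists were chosen with earlier results of these data known. Named were the members, every listed keratin with at least 1 CPM in any clone, in each other list the called genes with the highest mean (at most 4 in each direction) and the 2 most abundant genes not called, the 5 closest profiles and the 3 neighbours on either side. *CDH1*, *ACTA2*, *MYH11*, *SOX9*, *CD3E*, *CD14*, *PTPRC*, *PDGFRA*, *PKP2*, *COL1A2*, *MYOD1*, *MYOG*, *COL1A1*, *DLK1* and *XIST* were named after their values were seen. The same holds for *AARS*, *AARS1*, *EPRS*, *EPRS1*, *JUP*, *DSC2*, *DSC3* and *PKP3*. Alternatives were DESeq2 1.42.0, limma-voom (limma 3.58.1), RLE, upper-quartile and total-count library sizes, no filter, a minimum of 10 counts in 4 or more clones, a prior count of 2, the replicate number as a block, each clone left out, and, added after seeing the data, library sizes without keratin, desmosome and keratinocyte genes. Coordinates came from RefSeq's ARS-UCD2.0 gene list. Positions of the LOC IDs were not used here.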

Additional observations from a re-analysis of the deposited data

Results flagged for a closer look

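A clone was looked at more closely where, within its group of 4, its gap to the nearest clone made up more of the group's range than Dixon's 95% critical value. Of 104 groups of named genes 15 met this, where chance alone gives about 1 in 20.

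SF4 stood above the other SF clones in *KRT17* (84109 CPM, the others 36514 to 41602), *KRT36* (46822 CPM), *KRT23* (601 CPM) and the desmosomal gene *PKP1* (6091 CPM). It also stood above them in the genes whose profile was closest to *KRT17*: *LOC101120446* (48.7 CPM), *CBLC* (126 CPM), *CAPNS2* (29.97 CPM), *LOC101105179* (3006 CPM) and *LOC101118481* (122 CPM). These 5 genes were chosen for their likeness to *KRT17*, so they add no independent case.

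Among the IMF clones, IMF3 stood above the others in *KRT19* (1118 CPM, the others 425 to 509.75), and IMF1 was the only IMF clone with counts of *KRT20* (8.06 CPM). IMF4 stood below the others in *DES* (85.2 CPM) and above them in *GAST* (0.524 CPM). Among the SF clones, SF1 stood above the others in *KRT24* (1.54 CPM) and below them in *PLEC* (1371 CPM). The cause of these differences was not tested.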

How the results depend on the processing

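The number of genes called between IMF and SF was 1618 and ranged from 1595 with a prior count of 2 to 1996 with DESeq2 over the other fits on all clones, apart from 1489 with the replicate number as a block, and from 1332 to 1643 with a clone left out. Filament genes called higher in IMF, members apart, numbered 11 (8 to 11 with a clone left out), and those called lower numbered 2 (2 to 3 with a clone left out, 4 with DESeq2). The log2 fold change of *KRT17* was 0.10 to 0.60 with a clone left out, 0.29 with the replicate block and 0.41 with total counts alone, a setting that moved the median of all genes from −0.03 to 0.12. The mean share of *KRT17*, 5.50% of counts, was 6.24% when LOC IDs were left out of the total. *KRT19* ranged from −0.39 (without IMF3) to 0.24 (with total counts alone). *KRT14* ranged from 0.96 to 1.31 and *VIM* from −0.83 to −0.55 over all alternatives. *KRT20* reversed to −8.28 without IMF1 and reached 0.88 without SF2, but IMF1 is the only IMF clone with counts of it, so the first value is set by the prior count of the fit and gives no size. Other changed calls, of *KRT13*, *KRT23*, *DES*, *NEFH* and *BFSP1*, are given in the text, and *INA* passed with DESeq2 (adjusted p = 0.0122) and without SF2 (0.0283) or SF3 (0.0409), while its log2 fold change went from −1.94 to −0.97 without SF1. Clones of the same number deviated together with a mean correlation of 0.055 (−0.0093 to 0.139), and clones of different number with −0.018 (−0.105 to 0.109). The numbers were not taken as pairs, but 4 such pairs cannot show whether clones share an animal. With 4 clones a group, p-values measure the spread between these selected clones only.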
